A study of Mus musculus with 20 samples.

Results

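The distal part of mouse chromosome 12 holds a long run of neighbouring genes whose RNA was more abundant in Kmt2d-/- clones of the ATDC5 line than in Kmt2d+/+ clones. The run was taken as all protein-coding genes that start at or past 40 Mb on chromosome 12 (GRCm38) and reach a mean of 5 CPM (the gene's counts scaled to the size of the library) over the libraries. Fos, Tgfb3, Dlk1, Rtl1 and genes of the cytosolic ribosome, the respiratory chain and ATP synthase (symbols starting Rpl, Rps, Nduf, Cox or Atp5) were left out. This gave 237 genes, of 27911 in the table and of 10265 protein-coding genes at or above 5 CPM. Of the 486 protein-coding genes of the segment in the table, 244 were under 5 CPM and 5 were left out by symbol (Tgfb3, Atp5mpl, Rps29, Rpl36al and Cox16). The first of the 237 starts at 40201567 and the last ends at 118301440, a stretch of 78.1 Mb. The segment was noticed through the difference between the genotypes in these same libraries. That difference is therefore described below, and counts of genes passing on it are not a test of the segment.

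ATDC5 is an established mouse line of chondrogenic progenitors, derived from a teratocarcinoma, that forms cartilage-like cells under insulin. The libraries came from 3 Kmt2d+/+ clones and 2 Kmt2d-/- clones, each a separate clonal line, before differentiation (day 0) and after 7 days in chondrogenic medium (day 7). The Kmt2d-/- clones carry deletions on both alleles of the SET domain, the catalytic part of the histone H3 lysine 4 methyltransferase KMT2D. Poly(A) RNA of each clone and day gave 1 library, sequenced on 2 flow cells whose counts were summed, so there were 10 libraries of 35792773 to 66237188 assigned reads. At the shallowest of these, 5 CPM is about 179 reads. Each genotype is thus represented by very few clones, and what a clone picked up while it was grown out cannot be told apart from its genotype. Of the chondrocyte markers, Col2a1 was at least 2.72 CPM and Sox9 at least 21.2 CPM in every library. Acan was 0.115 to 8.49 CPM in the Kmt2d+/+ clones at day 0. Of the 8 markers listed, 2 were under 0.5 CPM in every library at day 0 in each genotype, and 0 at day 7. Col2a1 alone stood at 20500.0 to 24500.0 CPM in the Kmt2d-/- clones at day 7, so it weighs most on the sum there. All 8 chondrocyte markers together summed to 45.1 to 404.0 CPM in the Kmt2d+/+ clones at day 0 and to 586.0 to 1020.0 at day 7, against 1960.0 to 6160.0 and 26600.0 to 30700.0 in the Kmt2d-/- clones. How far the state of differentiation bears on the segment was not tested. Whole-gene Kmt2d counts ranged from 113.0 to 211.0 CPM and do not measure the deleted domain.

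Cultured lines often gain or lose whole chromosomes or large parts of them. A gained segment usually raises the RNA of most of its genes about in proportion to the copies, and genes whose output departs from this are called buffered when they respond less. Buffering can come from feedback on transcription, from RNA turnover or from a regulator elsewhere in the genome, and is better documented for proteins that sit in complexes, whose excess subunits are degraded, than for RNA. RNA counts do not measure DNA copies. Whether these clones carry extra copies of the segment was not analysed here.

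To show what was compared, 4 promoters of the segment are printed (RefSeq, GRCm38.p6, 300 bases around the start site, 5′ to 3′ on the gene's own strand). Dicer1, which encodes the RNase that cuts microRNA precursors (chr12:104751903-104752202, minus strand), and Yy1, which encodes a zinc-finger transcription factor (chr12:108793047-108793346, plus strand), stood among the genes closest to the segment's typical ratio. Fntb, the beta subunit of protein farnesyltransferase (chr12:76837217-76837516, plus strand), and Slc38a6, an amino acid transporter family member (chr12:73286598-73286897, plus strand), stood near the Kmt2d+/+ level. Capitals mark the GC box GGGCGG, a core that Sp-family factors recognise, on either strand (CCGCCC on the other).
Dicer1: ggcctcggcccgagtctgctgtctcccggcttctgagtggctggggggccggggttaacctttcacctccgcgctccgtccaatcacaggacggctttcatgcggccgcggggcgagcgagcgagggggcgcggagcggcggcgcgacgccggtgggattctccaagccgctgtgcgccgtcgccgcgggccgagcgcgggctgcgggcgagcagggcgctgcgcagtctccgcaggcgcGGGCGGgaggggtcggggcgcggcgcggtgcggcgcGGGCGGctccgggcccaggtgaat
Yy1: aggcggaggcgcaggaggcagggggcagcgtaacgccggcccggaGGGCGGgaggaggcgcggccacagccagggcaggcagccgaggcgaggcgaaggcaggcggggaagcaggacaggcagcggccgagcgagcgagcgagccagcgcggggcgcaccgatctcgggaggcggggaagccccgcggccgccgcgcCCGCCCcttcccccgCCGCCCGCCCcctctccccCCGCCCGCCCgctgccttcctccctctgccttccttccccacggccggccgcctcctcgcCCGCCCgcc
Fntb: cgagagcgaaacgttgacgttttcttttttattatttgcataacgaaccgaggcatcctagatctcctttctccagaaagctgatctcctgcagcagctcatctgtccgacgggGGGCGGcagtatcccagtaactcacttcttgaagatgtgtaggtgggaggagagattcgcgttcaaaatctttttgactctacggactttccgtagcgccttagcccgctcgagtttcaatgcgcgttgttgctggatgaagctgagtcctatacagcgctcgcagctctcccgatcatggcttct
Slc38a6: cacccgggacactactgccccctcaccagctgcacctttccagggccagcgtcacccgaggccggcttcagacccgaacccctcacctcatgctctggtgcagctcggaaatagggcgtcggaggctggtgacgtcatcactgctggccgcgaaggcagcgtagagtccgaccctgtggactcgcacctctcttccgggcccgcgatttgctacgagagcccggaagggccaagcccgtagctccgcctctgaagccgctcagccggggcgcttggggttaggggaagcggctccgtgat
Counting overlapping matches, the Yy1 promoter holds 7 GC boxes, that of Dicer1 2, that of Fntb 1 and that of Slc38a6 0. RefSeq promoters matched 206 of the 237 genes (258 promoters). A GC box was present in 58.5% of them, against 35.7% of all 32851 mouse promoters of the same length. The median number of CpG dinucleotides was 22, against 7. The set of all promoters includes genes under 5 CPM, so the 2 sets differ in expression as well as in place. Expressed genes elsewhere were not compared, so these contrasts single out nothing about the segment. Genes with a steady housekeeping output often have such CpG-rich starts. These are matches of letters and not measured binding.

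Each gene's value in a library is given below as a log2 ratio: log2(CPM + 0.5) in that library minus the mean of the Kmt2d+/+ libraries of the same day. For a Kmt2d+/+ library the mean of the other 2 was used. On this scale 0.585 is 1.5-fold and 0.737 is the ratio of 5 to 3.

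The whole segment stood higher in both Kmt2d-/- clones at both days, by a similar amount. The median ratio of the 237 genes was 0.726 in clone 1 at day 0, 0.689 in clone 1 at day 7, 0.674 in clone 2 at day 0 and 0.638 in clone 2 at day 7. As folds these are 1.65, 1.61, 1.60 and 1.56. In the 6 Kmt2d+/+ libraries the median lay between -0.0831 and 0.108, so the groups of library medians did not overlap. The pooled SD between clones of one genotype and day was 0.0799. The 10028 other protein-coding genes had medians between -0.00745 and 0.0201 in the Kmt2d-/- libraries. Between 221 and 223 of the 237 genes were above 0 in each of the 4 Kmt2d-/- libraries, and 203 (85.7%) were above it in all 4, against 24% of other genes.

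**Figure D1:**
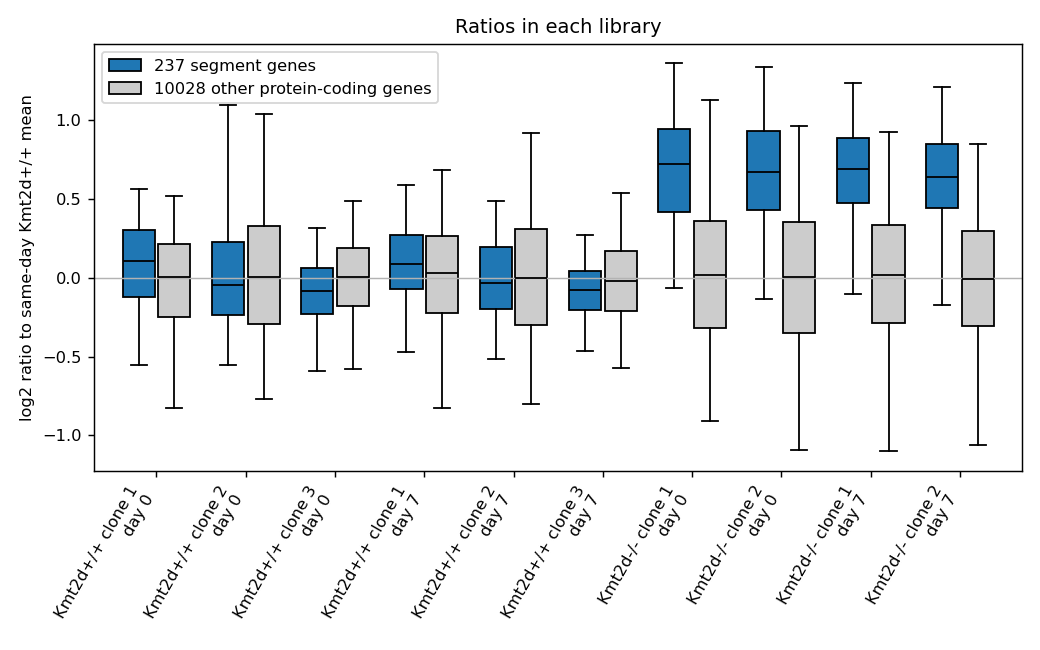
Log2 ratio to the same-day Kmt2d+/+ mean (y axis) in each of the 10 libraries (x axis), for the 237 segment genes (blue) and the 10028 other protein-coding genes (grey); boxes span the quartiles, lines mark the median and whiskers reach the 5th and 95th percentiles. The blue boxes of the 4 Kmt2d-/- libraries have medians of 0.638 to 0.726, and every grey median is close to 0.

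The higher level was present from end to end of the segment. Over the 4 Kmt2d-/- libraries the median of the mean ratio was 0.611 for the 38 genes between 40 and 60 Mb, 0.609 for the next 57 genes up to 80 Mb, 0.754 for the 68 genes up to 100 Mb and 0.682 for the last 74. The genes of chromosome 12 before 40 Mb stood the other way. The 38 genes in the first 20 Mb had a median of -0.33, and the 44 genes from 20 to 40 Mb one of -0.191. The medians of all 82 were between -0.259 and -0.192 in the Kmt2d-/- libraries and between -0.0792 and 0.113 in the Kmt2d+/+ libraries. The 40 Mb limit of the rule falls in a stretch with few expressed genes. Just past it, Ifrd1 had ratios of 0.54 and 0.43 in clone 1 and 0.08 and 0.31 in clone 2 (day 0 and day 7). Zfp277 had 0.72, 0.87, 0.71 and 0.42 in the same order, and Dock4 had 0.77, 1.18, 1.16 and 0.93. Just before it, Ankmy2 (36157114 to 36197291) already stood at 0.61, 0.68, 0.67 and 0.61. Bzw2, next to it, had -0.04, 0.77, 0.23 and 0.58, and Tspan13 had -0.48, -2.66, -0.01 and -1.30. So the limit is that of the rule and not an edge seen in the RNA.

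**Figure D2:**
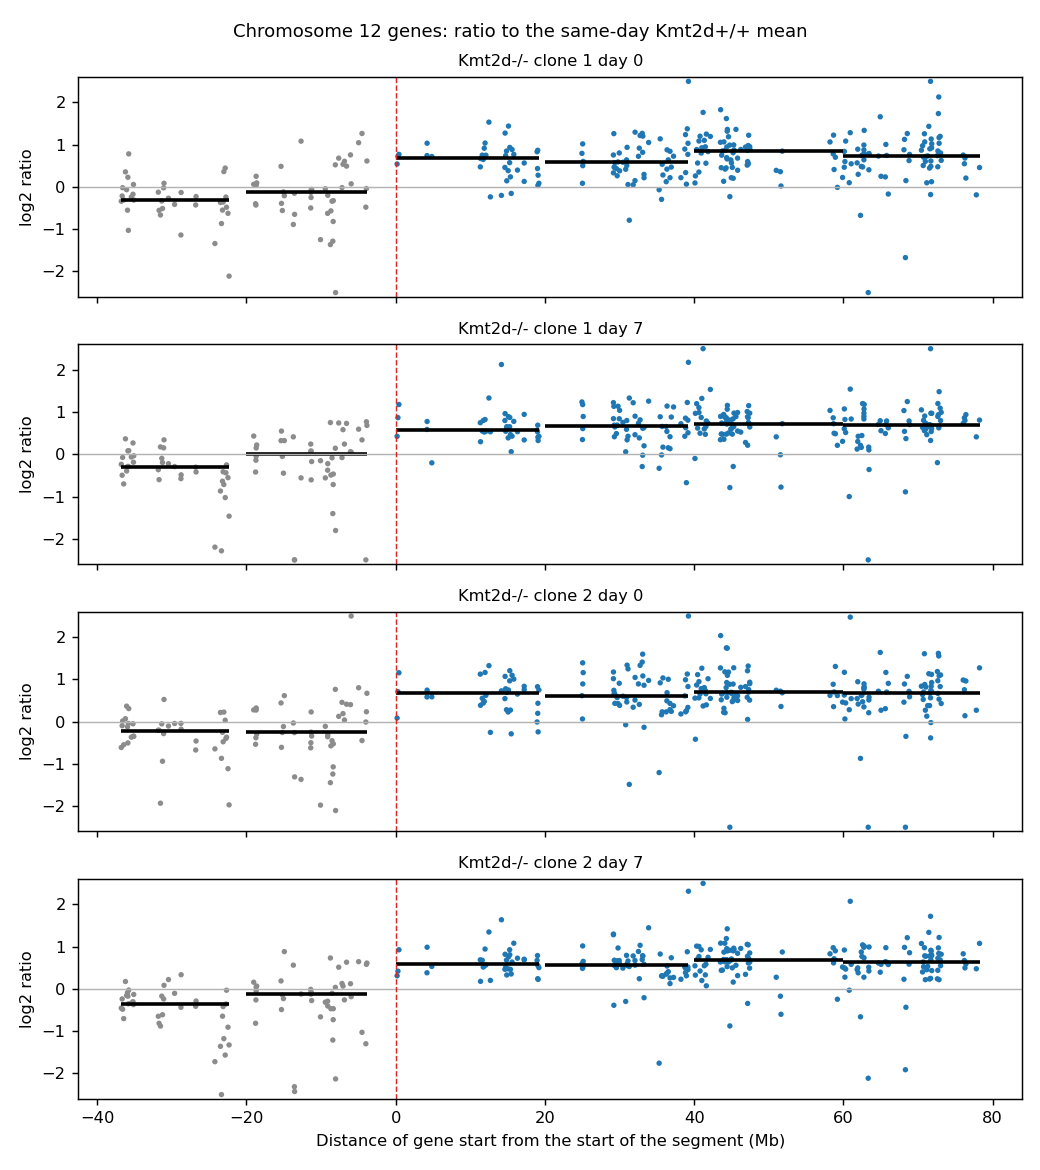
Log2 ratio to the same-day Kmt2d+/+ mean (y axis, values beyond 2.5 in either direction drawn at 2.5) of each expressed protein-coding gene of chromosome 12 against the distance of its start from the start of the segment in Mb (x axis), with 1 panel for each Kmt2d-/- library; black bars are medians of 20 Mb stretches, the last one to the end of the chromosome. Bars of the segment (blue points) lie between 0.557 and 0.843 in every panel, and those before it (grey points) at or below 0.0011.

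To ask how uniformly the genes followed, the spread around each library's own median was measured. Within 0.25 of the median lay 44.7% of the genes in clone 1 and 49.8% in clone 2 at day 0, and 55.7% and 56.1% at day 7. The median absolute deviation was 0.27 and 0.252 at day 0 and 0.207 and 0.203 at day 7. Other genes were more spread in the same libraries, with deviations of 0.302 to 0.353. In the Kmt2d+/+ libraries, whose segment medians lay between -0.0831 and 0.108, the segment's own deviations were 0.124 to 0.227. The 2 ranges overlap only when the days are pooled. The Kmt2d+/+ deviations were 0.144 to 0.227 at day 0 and 0.124 to 0.198 at day 7, below both Kmt2d-/- values of each day. Within 0.25 of the median lay 51.9% to 69.2% of the genes in the Kmt2d+/+ libraries at day 0, and 62.0% to 79.3% at day 7. Other genes had deviations of 0.185 to 0.307 in the Kmt2d+/+ libraries. A Kmt2d+/+ library is set against 2 others and a Kmt2d-/- library against 3. Separate sequencing runs of the same library differed by a median of 0.124 to 0.163 per gene, and by 0.399 to 0.558 at the 90th percentile of genes. Scatter shrank with abundance. The mean deviation over the Kmt2d-/- libraries was 0.272 for the 55 genes of 5 to 10 CPM and 0.165 for the 57 genes of at least 50 CPM, whose median ratio was 0.609 against 0.783 for the low group. The limit of 5 CPM is a mean over both genotypes, so a gene can enter through the libraries where it is high. Whether this raises the ratio of the low group was not tested.

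The 2 Kmt2d-/- clones had similar medians, and single genes differed between them in both directions. The ratio in clone 1 minus that in clone 2 had a median of 0.0126 at day 0 and 0.0481 at day 7, with deviations of 0.237 and 0.203. Other genes had medians of 0.0138 and 0.0315 and deviations of 0.312 and 0.248. The clones lay within 0.25 of each other for 51.9% of the segment genes at day 0 and 59.5% at day 7, against 41.9% and 50.0% of other genes. Differences beyond 1 in either direction were present for 8 genes at day 0 and 7 at day 7 (3.38% and 2.95%, against 9.5% and 5.91% of other genes). In 35 genes (14.8%) all 4 ratios lay within 0.25 of the medians of the segment, against 8.05% of other genes measured against their own medians.

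The genes named next were picked as those closest to the library medians, so the closeness of their ratios describes the choice. Dicer1 stood at 17.2, 13.3 and 19.9 CPM in the Kmt2d+/+ clones at day 0 and at 27.9 and 27.7 in the Kmt2d-/- clones. The day 7 values were 21.8, 11.3 and 17.3 against 26.8 and 25.1, so the groups did not overlap on either day. Its 4 ratios were 0.73, 0.71, 0.72 and 0.61. The low Kmt2d+/+ clone 2 weighs on this value, since without it the mean ratio was 0.489 in place of 0.693. Papola, the main nuclear poly(A) polymerase, stood at 90.9, 94.7 and 106.9 CPM against 163.5 and 158.4 at day 0, and at 91.2, 88.5 and 94.6 against 158.3 and 142.0 at day 7. Every Kmt2d-/- library of Papola was above every Kmt2d+/+ library of its day. Yy1 had a mean ratio of 0.680 ± 0.0911 (SD over the 4 Kmt2d-/- libraries, as for the other mean ratios below), the E3 ligase Arel1 0.650 ± 0.0433 and Rnf113a2 0.661 ± 0.0989. The narrow range of Arel1 does not extend to single runs, since its mean was 0.875 from run 1 alone and 0.436 from run 2 alone.

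Genes were sorted into 4 classes by the mean of their 4 ratios. Below -0.25 they were called lower, from -0.25 to 0.25 level, from 0.25 to 1 following and above 1 over-responding. Of the 237, 184 were following (77.6%), 29 over-responding (12.2%), 19 level (8.02%) and 5 lower (2.11%). Among the 10028 other genes the same limits gave 24.4%, 3.28%, 46.5% and 25.8%. Both Kmt2d-/- clones stood above every Kmt2d+/+ clone for 186 segment genes at day 0 and 197 at day 7, against 18.6% and 17.9% of all 15467 genes tested. They stood below for 3 and 4, against 18.3% and 19.8%. In edgeR's quasi-likelihood fit over all genes, 39 segment genes passed an adjusted p of 0.05 as higher in the Kmt2d-/- clones at day 0 and 31 at day 7, where 1.17% and 0.905% of all genes did. The segment was chosen on this contrast in these same libraries. The counts of separated and of passing genes, and their distance from all genes, therefore follow from the choice. They are given as description and test nothing about the segment.

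Class membership was uneven over the libraries. Only 1 of the 19 level genes, Slc38a6, had all 4 ratios in the level range, against 82 of the 184 following genes. As shares of all 237 genes these are 0.422% and 34.6%, against 8.28% and 5.44% of other genes. At or below 0.25 in both clones were 17 genes at day 0 (7.17%) and 15 at day 7 (6.33%), against 55.4% and 58.4% of other genes. They shared 6 genes, 35.3% of the first list and 6 of the 15 on the second. Above 1 in both clones were 25 genes at day 0 (10.5%) and 18 at day 7 (7.59%), against 2.18% and 2.05% of other genes. They shared 7, which is 28.0% and 38.9% of the lists. The limits are set from 0 and the segment was chosen for its shift, so its distance from other genes follows from the choice.

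Slc38a6 (73286779 to 73354049) was the clearest level gene by value. It stood at 842.1, 1088.0 and 871.2 CPM in Kmt2d+/+ against 1079.0 and 845.4 in the Kmt2d-/- clones at day 0, and at 765.9, 830.7 and 752.6 against 898.9 and 677.6 at day 7. The groups overlapped on both days, with clone 1 above the Kmt2d+/+ mean (0.22 and 0.20) and clone 2 below it (-0.13 and -0.21). Its count is uncertain, because its annotated transcripts share stretches of at least 500 bases at 80% identity or more with transcripts of 3 other genes, among them Noct, so reads may have been shared between loci. Fntb (76765589 to 76921412), which also meets the limits set for naming level genes, stood at 12.5, 14.5 and 14.8 CPM against 16.2 and 17.0 at day 0. The levels at day 7 were 13.1, 13.7 and 12.5 against 14.4 and 14.3. The Kmt2d-/- clones were above on both days, but by a mean ratio of only 0.191 ± 0.0759. Its mean was 0.322 from run 1 alone and 0.0166 from run 2 alone, and 257 of its exon bases are shared with Churc1 on the same strand. Other level genes by mean were Nfkbia, the inhibitor that holds NF-kappaB in the cytoplasm (-0.00624), Frmd6, a FERM-domain protein upstream of Hippo signalling (0.0271), Mia2, which helps export collagen and other bulky cargo from the endoplasmic reticulum (0.149), Mlh3, a mismatch repair subunit used in meiosis (0.145), Gtf2a1, a subunit of the general transcription factor TFIIA (0.225), and the forkhead repressor Foxn3 (0.144). These 6 genes were picked from the 19 for their known roles after their values were seen. Transcripts of Frmd6 share 1183 bases at 81.2% identity with those of Gm5780, so its reads may have been shared as well.

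For some level genes a zero mean hides opposite ratios. Dact1, a Wnt pathway modulator, stood at 28.4, 8.1 and 16.2 CPM in Kmt2d+/+ against 8.8 and 5.2 in the Kmt2d-/- clones at day 0. The day 7 values were 9.5, 4.9 and 7.8 against 18.8 and 10.6. Its ratios were thus -0.79 and -1.49 at day 0 but 1.33 and 0.53 at day 7. Akap6, an anchoring protein for protein kinase A, had -0.24 and -0.25 at day 0 and 0.53 and 0.20 at day 7. Trmt61a, the catalytic subunit of a tRNA methyltransferase, had -0.18 and -0.39 at day 0 and 0.33 and 0.25 at day 7. Prpf39, a splicing factor of the U1 particle, reached 0.246, just inside the limit. It shares 599 exon bases with Fkbp3 on the opposite strand, which was over-responding, and without strand information their reads cannot be separated.

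The 5 lower genes went against the segment. Asb2, which encodes an ankyrin repeat subunit of a ubiquitin ligase, stood at 12.6, 25.5 and 12.9 CPM in Kmt2d+/+ against 1.67 and 0.115 in the Kmt2d-/- clones at day 0. At day 7 the levels were 5.38, 10.5 and 11.0 against 0.308 and 1.60. Every Kmt2d-/- library was below every Kmt2d+/+ library, with a mean ratio of -3.32 ± 1.11. Hhipl1, a secreted relative of the hedgehog-interacting protein, stood at 8.82, 32.2 and 24.2 CPM against 5.65 and 2.89 at day 0. The levels at day 7 were 9.21, 11.3 and 9.41 against 5.14 and 2.27. Ltbp2, a matrix protein of elastic microfibrils, had a mean of -1.20 ± 1.17 and overlapping groups on both days, and the low value came mainly from clone 2 at day 0 (-2.90). Rhoj, a Cdc42-related GTPase, was lower mainly in clone 2 (-1.21 and -1.76) with -0.07 and -0.33 in clone 1. Rin3, an exchange factor for Rab5 GTPases, had -0.67, 0.21, -0.87 and -0.66 in the order clone 1 day 0, clone 1 day 7, clone 2 day 0, clone 2 day 7.

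Over-responding genes stood above what the rest of the segment showed. Zfyve26, a phosphoinositide-binding protein of endosomes and autophagy, stood at 2.43, 2.30 and 2.38 CPM in the Kmt2d+/+ clones at day 0 and at 16.9 and 24.2 in the Kmt2d-/- clones. The day 7 values were 3.90, 4.08 and 3.12 against 18.4 and 20.3. The mean ratio was 2.55 ± 0.410, a 5.85-fold difference, and no library of one genotype reached the other. At 2.30 to 4.08 CPM in the Kmt2d+/+ libraries, Zfyve26 met the limit of 5 CPM only through the Kmt2d-/- libraries. Arhgap5, a GTPase-activating protein, stood at 30.2, 19.2 and 21.9 CPM against 68.6 and 59.3 at day 0, and at 19.8, 16.7 and 16.6 against 45.2 and 45.7 at day 7. Its 4 ratios were close together, at 1.53, 1.35, 1.33 and 1.33 in falling order. Hif1a, the oxygen-regulated subunit of hypoxia-inducible factor, stood at 117.2, 155.3 and 94.2 CPM against 248.9 and 235.9 at day 0. At day 7 the levels were 175.0, 194.9 and 154.0 against 416.5 and 475.4. The mean ratio of Hif1a was 1.18 ± 0.213. Evl, an Ena/VASP actin regulator (1.20 ± 0.0878), Aldh6a1, a mitochondrial enzyme of valine breakdown (1.39 ± 0.278), Cdca4 (1.21 ± 0.201) and Ccdc88c, a Dishevelled-binding protein (1.84 ± 0.534), had separate groups on both days as well. Aldh6a1 shares 1078 exon bases with Bbof1 on the opposite strand. With a pseudocount of 2 CPM in place of 0.5, Cdca4 fell short of the limit of 1, at 0.981, and 15 of the 29 over-responding genes were left.

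In a few genes the 2 Kmt2d-/- clones stood apart on both days. Ckb, the brain-type creatine kinase, stood at 0.0286, 1.53 and 0.0421 CPM in the Kmt2d+/+ clones at day 0, at 11.3 in Kmt2d-/- clone 1 and at 0.734 in clone 2. The levels at day 7 were 0.0164, 7.08 and 1.83 against 23.8 and 6.38. Its groups overlapped on both days, and its place among the over-responding genes came from clone 1, with ratios of 3.82 and 3.54 against 0.56 and 1.72. Ckb also met the limit of 5 CPM mainly through the Kmt2d-/- libraries, and with values near 0 its ratios depend on the pseudocount. Six4, a homeobox factor, was higher in clone 2 (1.60 and 0.79) than in clone 1 (0.82 and -0.02). Ttc9 was higher in clone 1 (1.25 and 0.79) than in clone 2 (0.40 and 0.07). Differences of this kind describe single clones, and no replicate of either clone exists.

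**Figure D3:**
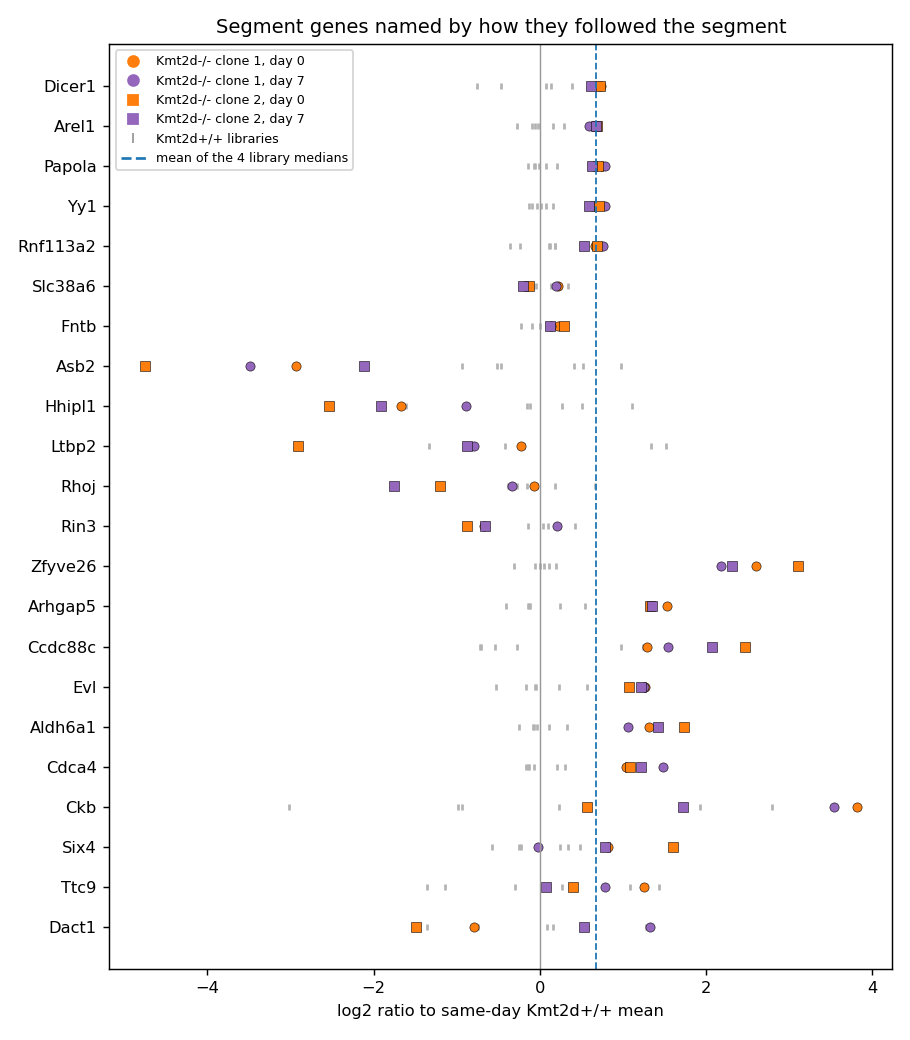
Log2 ratio to the same-day Kmt2d+/+ mean (x axis) of 5 of the segment genes that followed most closely (top), of level and lower genes, of the most over-responding genes and of genes that differed between the 2 Kmt2d-/- clones (bottom); circles and squares are clones 1 and 2, orange is day 0, purple is day 7, grey ticks are the 6 Kmt2d+/+ libraries and the dashed line is the mean of the 4 library medians. The symbols of Dicer1 and Papola cluster at the dashed line, those of Slc38a6 and Fntb lie near 0, and those of Asb2 lie between -4.75 and -2.11.

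By the roles of the proteins, most groups stood close to the segment as a whole, whose median of the mean ratio was 0.661 (median absolute deviation 0.187). The evenest was protein folding and degradation, with 15 of 16 genes following, 1 over-responding, a median of 0.583 and a deviation of 0.0636. It holds Hsp90aa1, the inducible cytosolic HSP90 chaperone, at 0.577 ± 0.0704 and its co-chaperone Ahsa1 at 0.655 ± 0.0892. Hsp90aa1 stood at 603.0, 449.0 and 528.0 CPM in the Kmt2d+/+ clones against 743.5 and 752.7 at day 0. The day 7 values were 291.7, 339.7 and 275.0 against 468.3 and 468.7, so its groups were separate on both days. Transcripts of Hsp90aa1 share long stretches with those of 2 other genes.

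Subunits of stable complexes were not level at the RNA. Of 30, 28 were following, 1 was over-responding and 1, Fntb, was level, with a median of 0.655. Dync1h1, the motor heavy chain of cytoplasmic dynein, stood at 425.1, 440.8 and 341.7 CPM against 787.1 and 623.9 at day 0. At day 7 the levels were 506.0, 495.0 and 402.8 against 724.9 and 615.7. The COPII coat subunit Sec23a had 0.83 and 0.57 in clone 1 but -0.01 and 0.68 in clone 2, and the cargo receptor Tmed10 had a mean of 0.838 ± 0.183. The 23 genes of RNA processing and translation had a median of 0.595, with 20 following and 2 level. Srsf5, a splicing factor, stood at 0.846 ± 0.0668, and Zfp36l1, which promotes decay of AU-rich messages, at 0.275 ± 0.330, below 0.10 in clone 1 and above 0.54 in clone 2. Transcripts of Srsf5 and Tmed10 also share sequence with those of another gene (678 bases with Gm12966 and 573 with Tmed10-ps).

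Transcription and chromatin genes (26, median 0.782) held 20 following and 4 over-responding genes. Besides Hif1a and Yy1 they include Mta1, a subunit of the NuRD complex, at 0.719 ± 0.244. The 12 genes of DNA replication, repair and mitosis had a median of 0.678. Among them Nek9, a mitotic kinase, stood at 0.972 ± 0.254, Cep170b at 1.32 ± 0.420 and the condensin II subunit Ncapg2 at 0.676 ± 0.354. The 26 genes of membrane traffic and motors had a median of 0.646, with 3 level and 3 over-responding. The 23 signalling genes had a median of 0.762. Akt1, the kinase downstream of PI3-kinase, stood at 0.863 ± 0.239, Cdc42bpb at 0.574 ± 0.154 and the phosphatase subunit Ppp4r3a at 0.628 ± 0.139.

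The 19 genes of metabolism and mitochondria had a median of 0.79. One of them was Dlst, the E2 subunit of the 2-oxoglutarate dehydrogenase complex. It stood at 66.2, 59.0 and 67.3 CPM against 88.4 and 89.1 at day 0, and at 51.5, 53.1 and 48.9 against 71.4 and 72.5 at day 7. Its 4 ratios lay between 0.463 and 0.501, below the segment's median in every library. Mgat2, a Golgi enzyme of N-glycan synthesis, stood at 1.07 ± 0.239, and Mthfd1, a folate cycle enzyme, at 0.341 ± 0.230. The 8 genes of matrix, growth factors and cytoskeleton departed most, with a median of 0.526, a deviation of 0.499 and 2 lower genes, Hhipl1 and Ltbp2. Smoc1, a secreted calcium-binding matrix protein, stood at 0.929 ± 0.516, Syne2 at 0.447 ± 0.396 and Actn1, an actin cross-linker, at 0.285 ± 0.567. The 11 genes inducible by low oxygen, stress or interferon had a median of 0.655 but a deviation of 0.313. The lists were drawn up with results of these data known, so their counts describe and do not test.

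**Figure D4:**
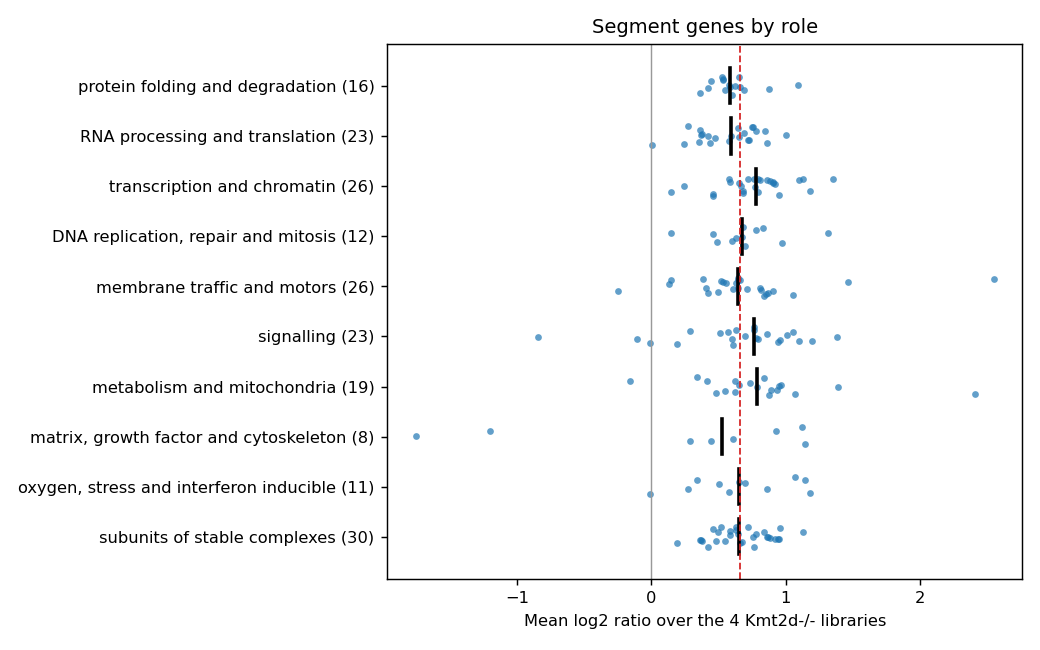
Mean log2 ratio over the 4 Kmt2d-/- libraries (x axis) of each segment gene on a role list (y axis, number of genes in brackets; vertical position within a list is random); black bars are list medians and the dashed line is the median of all 237 genes. List medians lie between 0.526 and 0.79, and the matrix list has 2 genes below -1.

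Features that the rule did not use were set beside the classes. A GC box was present in 64.2% of the 190 promoters of following genes, 51.5% of the 33 of over-responding genes, 28.6% of the 28 of level genes and 57.1% of the 7 of lower genes. The median CpG numbers were 24, 18, 18 and 13. A CCAAT box (both strands) was present in 40.3% of the segment's promoters and in 46.4% of those of level genes, against 37.4% of all promoters. TATAAA was present in 6.98% and 14.3%, against 13.6% of all promoters. Several promoters can belong to 1 gene, the groups other than the following one are small, and no test was made. The set of all promoters again includes genes under 5 CPM. Sequence shared with other genes' transcripts was found for 10 following and 2 level genes. Overlap of at least 50 exon bases with another gene of at least 1 CPM was found for 26 following, 2 level and 2 over-responding genes.

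Of the segment's protein-coding genes outside the list, the 5 left out by symbol and the 59 of 1 to 5 CPM were measured, and the 185 under 1 CPM were not. The 5 genes left out by symbol had a median of 0.787, and all 5 had a mean above 0.25. Rps29, a ribosomal subunit, stood at 0.62, 1.18, 1.13 and 1.33. Tgfb3, a TGF-beta ligand, stood at 1.15 and 0.51 in clone 1 and at 0.56 and -0.10 in clone 2. The 59 genes of 1 to 5 CPM had a median of 0.719, and 36 of them (61.0%) were above 0 in all 4 Kmt2d-/- libraries, against 85.7% of the 237. At the limit of 5 CPM, Dglucy, Plekhg3 and Dcaf4 were just above it with mean ratios of -0.162, 0.552 and 0.828, and Arl4a, Fbln5 and Snapc1 just below it, with ratios of 0.37 to 1.19 over all their Kmt2d-/- libraries. By contrast, 4 processed pseudogenes at or above 5 CPM had a median of -0.172, and none had a mean above 0.25. Reads of such copies and of their parent genes elsewhere cannot always be told apart.

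The response to 7 days of chondrogenic medium was not used to choose the segment and could be tested within each genotype. It is not fully independent of the rule. The limit of 5 CPM is a mean over both days, so a gene can enter through the day where it is high. In the Kmt2d+/+ clones 17 of the 237 genes passed (7.17%, edgeR's quasi-likelihood test, Benjamini-Hochberg adjusted p under 0.05 over 15467 genes). Of these, 10 rose and 7 fell, where 5.08% of all genes passed, 3.05% upwards and 2.04% downwards. The median log2 change was -0.0417 for the segment and 0.0279 for all genes. With a term for each clone, which pairs its 2 days, 44 segment genes passed (21 rose and 23 fell), where 18% of all genes did, 10.3% upwards and 7.76% downwards. In the Kmt2d-/- clones 4 genes passed, 3 up and 1 down, where 1.27% of all genes did (0.672% and 0.595%). With the term for each clone 9 did, where 5.57% of all genes did. These shares lie near those of all genes and single out nothing about the segment. Unlike the 237, the genes tested include some under 5 CPM, so the 2 sets differ in abundance.

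Slc8a3, a sodium-calcium exchanger, rose in both genotypes. In the Kmt2d+/+ clones it stood at 0.687, 1.14 and 0.801 CPM at day 0 and at 26.9, 4.23 and 8.84 at day 7. In the Kmt2d-/- clones it stood at 4.13 and 1.26, then at 142.0 and 101.3. The days did not overlap in either genotype. The log2 changes were 3.92 (SE 0.730, edgeR adjusted p = 0.0266) and 5.50 (SE 0.935, edgeR adjusted p = 0.0381). Akap6 rose too, from 1.03, 4.08 and 1.10 CPM to 24.2, 15.6 and 11.6, and from 1.40 and 1.38 to 23.9 and 18.9. Its log2 changes were 3.04 (SE 0.558, edgeR adjusted p = 0.0258) and 3.94 (SE 0.713, edgeR adjusted p = 0.0438). Slc8a3 and Akap6 were under 5 CPM in every library at day 0, so both met the limit only through day 7. Itpk1, an inositol phosphate kinase, rose by log2 1.06 in the Kmt2d+/+ clones and 1.69 in the Kmt2d-/- clones (edgeR adjusted p = 0.0439 and 0.0420). Frmd6 fell from 92.1, 74.1 and 102.3 CPM to 33.8, 45.4 and 45.6, and from 118.7 and 84.3 to 43.0 and 33.5. Its changes were -1.10 and -1.41 (edgeR adjusted p = 0.0266 and 0.0439). The Frmd6 levels of the genotypes overlapped on both days, and it fell in both.

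The other genes passed in the Kmt2d+/+ clones and not in the Kmt2d-/- clones, and no difference between the genotypes was shown for them. With the term for each clone, 2 of them also passed in the Kmt2d-/- clones, Actn1 (edgeR adjusted p = 0.0233) and Ccdc88c (edgeR adjusted p = 0.0478). Hif1a, Egln3 and Cep170b passed there too in that fit, with log2 changes of 0.88, 3.28 and -0.77 (edgeR adjusted p = 0.0316, 0.0276 and 0.0492). Of these, Hif1a and Egln3 also passed in the Kmt2d+/+ clones in that fit, with 0.54 and 1.64 (edgeR adjusted p = 0.0334 and 0.0407). Cep170b did not (-0.04, edgeR adjusted p = 0.830). Actn1 fell from 1012.0, 586.4 and 879.2 CPM to 222.6, 195.2 and 223.5 (log2 -1.95, SE 0.272, edgeR adjusted p = 0.0141). In the Kmt2d-/- clones it went from 965.0 and 602.8 to 418.1 and 268.0. Its ratio to the Kmt2d+/+ mean moved accordingly from 0.26 and -0.42 at day 0 to 0.97 and 0.33 at day 7. Trmt61a fell by 1.44, Elmsan1 by 0.93 and Prpf39 by 0.82 on the log2 scale, and Hsp90aa1 by 0.80. Ccdc88c rose by 3.02, from 0.859, 2.83 and 0.969 CPM to 19.1, 10.5 and 8.44. Tmem229b rose by 1.66, Dglucy by 1.43 and Aldh6a1 by 1.03. The edgeR adjusted p-values of these 8 genes lay between 0.0232 and 0.0475, and Dtd2, Zfyve21 and Zfyve1 (up) and Nin (down) passed as well.

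The test of whether the day effect differed between genotypes, the interaction term of the same edgeR fit, passed for 0 of the 237 genes and for 0 of all 15467. At an unadjusted p under 0.05 there were 10 segment genes, against 3.67% of all genes. With limma-voom, DESeq2 and the term for each clone, 0 segment genes passed as well. For the members the median interaction was -0.0129. A gene whose class differed between day 0 and day 7 was therefore not shown to respond differently in the 2 genotypes.

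In the fit without a term for each clone, the day counts depended on single clones. The fit with that term was not repeated with a clone left out. For the Kmt2d+/+ day effect, leaving out Kmt2d+/+ clone 1 or 3 left 0 passing genes, and leaving out clone 2 left 21. Dropping Kmt2d-/- clone 1 left 10, and dropping Kmt2d-/- clone 2 left 9. For the Kmt2d-/- day effect, 1 gene passed when Kmt2d+/+ clone 1 was dropped, 2 when clone 2 was, and 0 when any of the others was. With 1 Kmt2d-/- clone dropped, the lone library of a day is assumed to vary like the other groups. In the Kmt2d+/+ clones Actn1, Ccdc88c, Aldh6a1, Prpf39, Frmd6, Trmt61a and Slc8a3 each passed in 3 of these 5 fits, and Nin and Tmem229b in 2. Dglucy, Hsp90aa1, Elmsan1, Zfyve1 and Akap6 passed in 1, and Itpk1, Dtd2 and Zfyve21 in 0. In the Kmt2d-/- clones Slc8a3 passed in 2, Akap6 in 1, and Itpk1 and Frmd6 in 0.

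**Figure D5:**
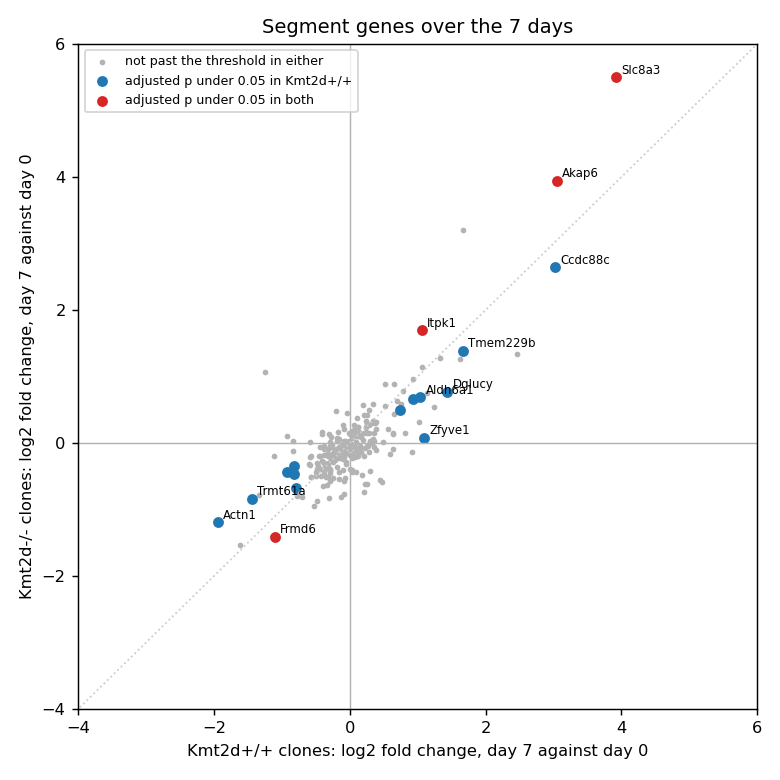
Log2 fold change from day 0 to day 7 in the Kmt2d-/- clones (y axis) against that in the Kmt2d+/+ clones (x axis) for the 237 segment genes; blue points passed in the Kmt2d+/+ clones alone, red points in both genotypes and grey points in neither, in the fit without a term for each clone, and the dotted line marks equal change. Slc8a3, Akap6, Itpk1 and Frmd6 are the 4 red points, and names are given for passing genes whose change exceeded 1 in either genotype.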

How the data were processed

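Per the labels, poly(A) RNA libraries were run on 2 flow cells each. The authors deposited estimated counts per Ensembl gene for each run. The submitters' processing notes name Salmon, edgeR, limma, DESeq2 and GRCm38. Their roles and versions were not given in the sources used here. The runs of a library were summed and rounded to whole counts, giving 10 libraries of 35792773 to 66237188 counts. Positions and symbols came from GENCODE vM21 (GRCm38). Poisson error is small at these depths, and the 2 to 3 clones per group limit the precision.

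CPM values were computed with TMM factors (edgeR 4.0.16, R 4.3.3). The quasi-likelihood test was fitted with 4 group means to the 15467 genes kept by filterByExpr. All 237 segment genes were kept. DESeq2 1.42.0, limma 3.58.1 (voom), a term for each clone, other scalings, each run alone and each clone left out were the alternatives. Clones pair the days because each is a separate line sampled on both days. Deviations from the group means correlated between days at 0.395 to 0.595. The test script was checked on simulated data with a smaller spread than these libraries and no differences between clones. That check does not cover the spread of these clones. Sequence shared between transcripts was found with minimap2, and overlaps of exons from the annotation.

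The genes of the segment and the role lists were chosen with earlier results of these data known. Named genes were up to 8 level genes with all ratios between -0.3 and 0.3, the 6 closest to the library medians, the 6 highest and 6 lowest by their least extreme ratio, the 6 that differed most between Kmt2d-/- clones, up to 5 passing genes each way per test with separate groups, the 3 most abundant of each role list and the 3 nearest each limit. Only 2 level genes met that rule. Some genes that the rule names are not reported here. Of marker lists for other cell types (adipocyte, skeletal muscle, endothelial, immune and epithelial), none summed to more than 9.48 CPM in any library.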

Additional observations from a re-analysis of the deposited data

Results flagged for a closer look

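In 3 named segment genes every Kmt2d+/+ clone moved one way from day 0 to day 7 and both Kmt2d-/- clones the other. For Dact1 the Kmt2d+/+ clones moved by -1.53 to -0.653 and the Kmt2d-/- clones by 0.952 to 1.05 on the log2(CPM + 0.5) scale, a difference of the means of 2.07. For Dync1h1 the moves were 0.167 to 0.251 and -0.119 to -0.0189, a difference of -0.287. For Mta1 they were -0.429 to -0.145 and 0.077 to 0.106, a difference of 0.379. These are 3 of the 60 named genes (5.0%). The same split was present in 12 of the 237 segment genes (5.06%) and in 4.84% of all 15467 genes, so the shares are close to the background. In the interaction test of the edgeR fit over all genes none of the 3 passed. The unadjusted p-values of this edgeR test were 0.0133, 0.302 and 0.116, and the adjusted p was 1 for each. Groups of this size were too small to look for single outlying libraries.

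Protein-coding genes of the segment with 1 to 5 CPM, which the rule leaves out, had a median mean ratio of 0.719, above the Kmt2d+/+ libraries, whose medians for these 59 genes lay between -0.0402 and 0.0166. Of the 59, 36 were above 0 in all 4 Kmt2d-/- libraries.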

How the results depend on the processing

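The segment's median ratio (0.70 at day 0 and 0.664 at day 7, averaged over the Kmt2d-/- clones) stayed between 0.610 and 0.727 under every alternative run, which included other scalings, pseudocount, limits, runs and each clone left out. The share of genes within 0.25 of the median (47.3% and 55.9%) became 61.8% and 71.3% with a window of 0.35. With a pseudocount of 2 CPM there were 15 over-responding genes. A minimum of 1 CPM gave 12 lower genes. A minimum of 20 CPM gave 1 lower, 11 level, 104 following and 9 over-responding genes, since fewer genes enter. Leaving out each clone gave 5 to 8 lower genes, 8 without Kmt2d+/+ clone 2, against 5 as reported. Without Kmt2d-/- clone 2 only 3 of the 5 reported lower genes were still lower. Of the 19 level genes, 12 were still level without either Kmt2d-/- clone. For the day effect in the Kmt2d+/+ clones 17 genes passed as reported, 44 with DESeq2, 44 with the replicate block (a term for each clone, the paired fit) and 0 to 21 with a clone left out. In the Kmt2d-/- clones the counts were 4, 11, 9 and 0 to 2, and 1 from run 2 alone. The cause of these shifts in counts was not tested. The block called 0 interactions, as reported.

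Each genotype has 2 or 3 clones, and DNA copies were not analysed here. In the fit without a term for each clone, p-values are set against the spread between clones. With that term, they are set against how the day effect varied from clone to clone. Without a spike-in, ratios are relative to the average gene.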
